A study of Mus musculus with 5 samples.

Results

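Plasma cells reach and keep their places in spleen and bone marrow through chemokine receptors and receptors for sphingosine-1-phosphate (S1P), and 7 such genes, Cxcr3, Cxcr4, Cxcr5, Ccr2, Ccr7, S1pr1 and S1pr4, are described here across sorted plasma cells of the mouse. They were taken by symbol from the 33456 genes of the tables, and all 7 were found. Levels are counts of unique molecular identifiers (UMIs) of 1 gene per 1000000 UMIs of all genes other than immunoglobulin genes (CPM). Over 5468 cells, Cxcr3 had 1449 UMIs, S1pr4 664, Cxcr4 222, S1pr1 99, Cxcr5 16, Ccr2 7 and Ccr7 3, so only the first 4 can be followed between groups.

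The cells were primary, untreated plasma cells of unimmunized male C57Bl6/N mice aged 8 to 12 weeks, sorted in 2 rounds as CD138-high, Ly6g- and CD11c- cells. The sort also used B220, a form of CD45 that falls as plasma cells mature, and uptake of 2NBDG, a fluorescent glucose analog. The 5 groups were splenic B220+2NBDG+, splenic B220+2NBDG-, bone marrow B220-2NBDG+, splenic B220-2NBDG+ and splenic B220-2NBDG- cells, each of them 1 library of cells pooled from 3 mice, with about 1000 cells stated per subset. With 1 library per group there is no replicate error and no test between gates: the intervals given for levels, shares and ratios are exact 95% intervals that cover counting error only.

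The libraries held between 894 and 1295 cells and between 3950427 and 6666166 non-immunoglobulin UMIs after 8 T cell-like cells were left out (7 of them in splenic B220+2NBDG-, 1 in splenic B220-2NBDG-), and the median cell had between 3698 and 5910 such UMIs. Jchain, which encodes the joining chain of antibodies, led the plasma cell markers in each library. Of the marker lists of other cells, those of B cells and plasmacytoid dendritic cells were not low, and the rest summed to at most 42.7 CPM. The T cell list summed to between 9.48 and 33.8 CPM, with Cd8a, Il7r and Trbc1 at 0 in all 5 libraries. It was led by Cd3g at 15.5 CPM in splenic B220+2NBDG- and by Lat at 16.5 CPM in bone marrow cells. The dendritic list summed to between 6.73 and 16.8 CPM, nearly all Flt3. The neutrophil list summed to at most 3.54 CPM and the stromal list to at most 0.759 CPM. The monocyte and macrophage list summed to between 27.8 and 42.7 CPM, led by Cd68, with Adgre1 and Cd14 at 0 in all 5 libraries. The plasmacytoid dendritic list summed to between 911 and 2746 CPM, led by Ly6c2 at 516 to 2266 CPM, with Siglech at 0 in 3 libraries. The NK cell list summed to at most 8.21 CPM, led by Gzma, and the erythroid list to at most 2.66 CPM. The B cell list summed to between 880 and 1603 CPM, led by Cd79b at 490 to 1017 CPM. Pax5, the factor that defines B cells, was at 0 in the 3 B220- libraries. Of the barcode sequences, 11 occurred in more than 1 library. The libraries also divide along a line that no gate follows: the pseudogene Rps18-ps3 had 272 CPM in splenic B220+2NBDG- and 85.1 CPM in splenic B220-2NBDG+ cells, against 4.74 to 12.4 CPM in the others. Each of the 5 comparisons sets a library from one side of this line against one from the other. No comparison can therefore be repeated without those libraries, and the gate and the line cannot be told apart within a pair.

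All 7 genes encode receptors with 7 membrane-spanning segments that act mainly through inhibitory G proteins. CXCR3 binds CXCL9, CXCL10 and CXCL11, which interferons induce in inflamed tissue, and its gene is a target of the transcription factor T-bet. CXCR4 binds CXCL12 of stromal cells and holds plasma cells in the bone marrow niche. S1P is abundant in blood and lymph, and S1PR1 is the receptor by which lymphocytes follow it out of tissue, while S1PR4 is a related receptor of blood cells. CXCR5 and CCR7 place B cells in follicles and at the border to the T cell zone, and are lost as plasma cells form, while CCR2 guides monocytes toward CCL2.

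The promoters of the 3 genes with the most UMIs are shown because these genes differ in pattern by isotype: Cxcr3 was highest in IgG cells, S1pr4 was higher and Cxcr4 lower in IgA than in IgM cells. Sequences of 250 bases before to 50 bases after the gene's start come from RefSeq (GRCm38.p6), and 4 of the 7 genes were matched in the promoter table used. For Cxcr3 the GENCODE M21 start given below lies further upstream. More than 50 bases of its window therefore lie inside that gene span. All 3 lie on the minus strand and are written 5′ to 3′ along the gene, at chrX:101734098-101734397 for Cxcr3, chr10:81500088-81500387 for S1pr4 and chr1:128592250-128592549 for Cxcr4. Capitals mark 2 short motifs searched on both strands: TCACAC, a half-site of T-box factors such as T-bet, and the E-box CANNTG, bound by basic helix-loop-helix factors; the 2 motifs do not share bases here. By GENCODE M21 the genes themselves span 101731535 to 101734269 of chromosome X (Cxcr3, ENSMUSG00000050232), 81497747 to 81500132 of chromosome 10 (S1pr4, ENSMUSG00000044199) and 128588199 to 128592293 of chromosome 1 (Cxcr4, ENSMUSG00000045382).
Cxcr3: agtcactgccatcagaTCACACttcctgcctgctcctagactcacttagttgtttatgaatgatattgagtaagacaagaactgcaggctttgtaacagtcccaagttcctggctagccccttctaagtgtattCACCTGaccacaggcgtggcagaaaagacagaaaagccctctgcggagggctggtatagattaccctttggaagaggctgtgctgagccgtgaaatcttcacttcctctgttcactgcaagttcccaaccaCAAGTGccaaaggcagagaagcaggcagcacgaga
S1pr4: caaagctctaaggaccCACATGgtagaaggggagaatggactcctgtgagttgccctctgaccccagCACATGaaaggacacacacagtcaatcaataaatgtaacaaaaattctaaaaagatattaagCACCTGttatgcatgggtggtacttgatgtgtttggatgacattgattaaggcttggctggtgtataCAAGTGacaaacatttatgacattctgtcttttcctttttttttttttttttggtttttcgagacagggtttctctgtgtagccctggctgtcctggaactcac
Cxcr4: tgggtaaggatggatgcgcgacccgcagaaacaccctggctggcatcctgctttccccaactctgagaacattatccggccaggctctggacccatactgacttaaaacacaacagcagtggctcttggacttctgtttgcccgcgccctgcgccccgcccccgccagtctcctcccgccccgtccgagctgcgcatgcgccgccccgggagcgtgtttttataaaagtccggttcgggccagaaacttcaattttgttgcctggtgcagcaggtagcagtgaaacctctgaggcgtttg
The Cxcr3 window holds 1 T-box half-site, starting at base 17, and 2 E-boxes. The S1pr4 window holds 4 E-boxes and no T-box half-site, and the Cxcr4 window holds neither motif. Of 32851 promoters of the same length, 14.5% hold the T-box half-site and 72.3% an E-box, so neither is rare. Tbx21, the T-bet gene itself, was chosen after its values were seen and had 10 UMIs in splenic B220+2NBDG+, 14 in B220+2NBDG-, 0 in bone marrow B220-2NBDG+, 6 in splenic B220-2NBDG+ and 4 in splenic B220-2NBDG- cells, too few to compare.

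Cxcr3 was the receptor that followed B220. Its level was 103 CPM (563 UMIs, 94.3 to 111) in splenic B220+2NBDG+ cells and 114 CPM (762 UMIs, 106 to 123) in splenic B220+2NBDG- cells. It was 3.54 CPM (20 UMIs, 2.16 to 5.47) in bone marrow B220-2NBDG+ cells, 12.2 CPM (48 UMIs, 8.96 to 16.1) in splenic B220-2NBDG+ cells and 10.9 CPM (56 UMIs, 8.27 to 14.2) in splenic B220-2NBDG- cells. Both B220+ libraries were high and all 3 B220- libraries low, and 91.4% of all Cxcr3 UMIs came from the B220+ libraries. The same share was 70.7% for S1pr1, 58.9% for S1pr4 and 48.2% for Cxcr4. On few UMIs it was 87.5% for Cxcr5 (16 UMIs), 57.1% for Ccr2 (7 UMIs) and 66.7% for Ccr7 (3 UMIs).

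**Figure D1:**
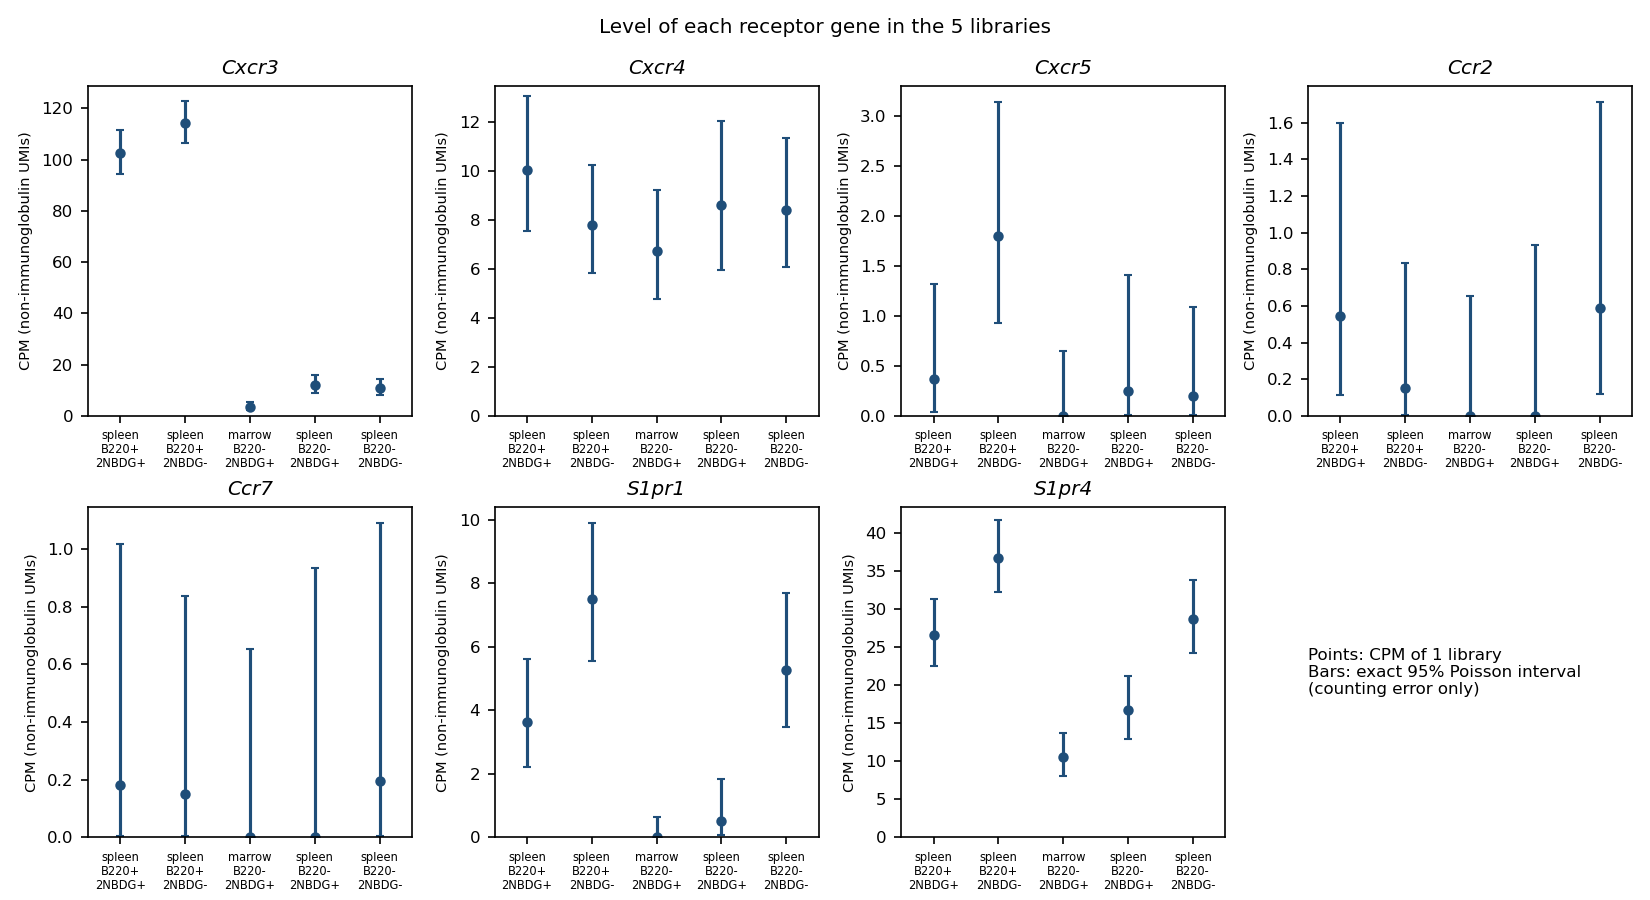
Level of each of the 7 receptor genes in CPM over non-immunoglobulin UMIs (vertical axes, a separate scale for each gene) in the 5 libraries. Points are single libraries and bars exact 95% Poisson intervals; Cxcr3 lies at 103 and 114 CPM in the B220+ libraries and at or below 12.2 CPM in the others, while S1pr1 was not detected in bone marrow.

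Among 2NBDG+ splenic cells the Cxcr3 level was 8.45-fold higher in B220+ than in B220- cells (6.28 to 11.6). Among 2NBDG- cells it was 10.4-fold higher in B220+ cells (7.95 to 14.0). A gene was called when the higher library had at least 25 CPM and 50 UMIs and the ratio was at least 2. Cxcr3 was the 1 member called of 2 that reached these minimums in each B220 comparison, the other being S1pr4. Of all genes that reached them, 2.45% were called higher in B220+ cells among 2NBDG+ cells and 5.91% among 2NBDG- cells. Total Ptprc, whose product includes B220 but whose 3′ reads do not tell the forms apart, had 61.2 CPM in B220+2NBDG+ against 48.6 CPM in splenic B220-2NBDG+ cells, and 80.1 CPM in B220+2NBDG- against 57.3 CPM in B220-2NBDG- cells.

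Cxcr3 UMIs were found in many B220+ cells, but most UMIs were held by a minority of cells with 2 or more. A Cxcr3 UMI was found in 343 of 1126 B220+2NBDG+ cells (30.5%) against 33 of 894 splenic B220-2NBDG+ cells (3.69%). It was found in 367 of 1215 B220+2NBDG- cells (30.2%) against 35 of 1295 B220-2NBDG- cells (2.70%), and in 18 of 938 bone marrow cells (1.92%). Since cells differ in depth, each was also thinned to 1000 non-immunoglobulin UMIs, which left out 10 B220+2NBDG+, 5 B220+2NBDG-, 3 bone marrow, 2 splenic B220-2NBDG+ and 13 B220-2NBDG- cells below that depth. Thinned shares were 9.77% in B220+2NBDG+ and 1.12% in splenic B220-2NBDG+ cells, 9.01% in B220+2NBDG- and 0.780% in B220-2NBDG- cells, and 0.214% in bone marrow. The highest single cell had 11 UMIs, in the B220+2NBDG- library, where 176 cells had 2 or more and held 74.9% of that library's Cxcr3 UMIs. In the B220+2NBDG+ library 124 cells had 2 or more and held 61.1%.

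Between 2NBDG+ and 2NBDG- cells Cxcr3 did not pass the call rule in either splenic population. The 2NBDG+ over 2NBDG- ratio was 0.898 in B220+ cells (0.804 to 1.002) and 1.11 in B220- cells (0.739 to 1.66; 48 against 56 UMIs). Bone marrow B220-2NBDG+ cells were 3.43-fold lower than their splenic counterparts (2.00 to 6.10), but with 20 against 48 UMIs Cxcr3 was below the minimum for a call. None of the 7 genes was called in these 3 comparisons. Cxcr3 and S1pr4 reached the minimums for 2NBDG in B220+ cells, where 5.77% of all genes tested were called in either direction. S1pr4 alone reached them for 2NBDG in B220- cells, with 3.01% of genes called, and none did for bone marrow, with 2.58%.

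**Figure D2:**
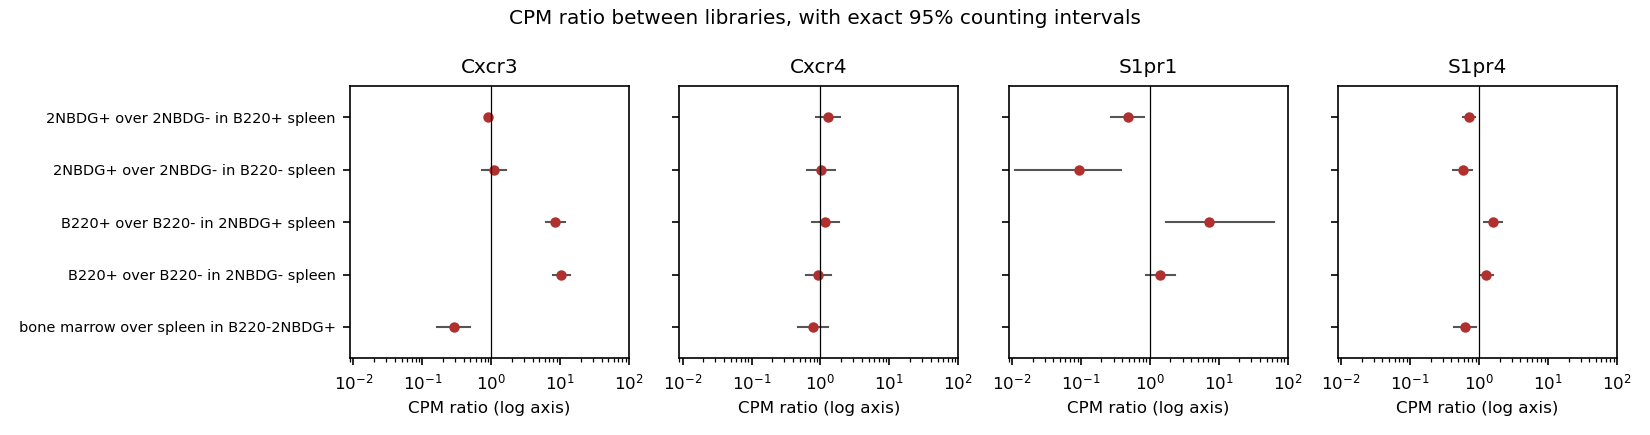
CPM ratio (horizontal log axes) of the 4 better-counted receptor genes in the 5 comparisons, with exact 95% counting intervals as lines and a vertical line at 1; ratios against a library with no UMI are not drawn. Cxcr3 stands at 8.45 and 10.4 in the B220 comparisons, Cxcr4 stays near 1 in all 5, and S1pr1 and S1pr4 lie below 1 in both 2NBDG comparisons.

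Cxcr3 also differed by antibody isotype within every library. Isotypes were assigned to cells with 10 or more UMIs of heavy-chain constant genes, 70% or more of them from a single gene; 67 of 5468 cells fell in none of IgG, IgA and IgM. In B220+2NBDG+ spleen Cxcr3 had 166 CPM in IgG cells (421 UMIs, 552 cells), 38.9 CPM in IgA cells (19 UMIs) and 45.9 CPM in IgM cells (101 UMIs). In B220+2NBDG- spleen it had 178 CPM in IgG cells (433 UMIs, 417 cells), 27.0 CPM in IgA cells (11 UMIs) and 82.4 CPM in IgM cells (306 UMIs). IgG cells were the highest in both, and 42.2% of them had a UMI in the B220+2NBDG+ and 44.8% in the B220+2NBDG- library.

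IgG cells were also the highest in the B220- libraries, while IgA lay above IgM in bone marrow and under it in the other libraries. In bone marrow Cxcr3 had 16.8 CPM in IgG (10 UMIs), 2.26 CPM in IgA (7 UMIs) and 1.06 CPM in IgM cells (2 UMIs). In B220-2NBDG+ spleen it had 56.4 CPM in IgG (28 UMIs), 4.05 CPM in IgA (4 UMIs) and 6.18 CPM in IgM cells (15 UMIs), and in B220-2NBDG- spleen 102 CPM in IgG (32 UMIs), 3.43 CPM in IgA (2 UMIs) and 5.05 CPM in IgM cells (21 UMIs). IgG cells of the B220-2NBDG- library thus had 27.0% of cells with a UMI (20 of 74), against 1.11% of IgM cells (12 of 1079) captured in the same library; thinned, the shares were 5.56% and 0.467%. The sort holds no cell type that should lack Cxcr3, so free RNA can be judged only from the lowest class of the same library. In B220+2NBDG+ spleen this was IgA with 5 of 96 thinned cells (5.21%, 1.71 to 11.7), against 14.5% of IgG cells, and in B220+2NBDG- spleen IgA with 2 of 75 thinned cells (2.67%, 0.325 to 9.30), against 13.2% of IgG cells.

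Tested over 15 sums, 1 for each library and isotype, with edgeR's quasi-likelihood test and the library as a block, Cxcr3 was 3.92-fold higher in IgG than in IgM cells (log2 1.97 ± 0.28 SE, Benjamini-Hochberg adjusted p = 8.28e-05, higher in 5 of 5 libraries). It was 6.07-fold higher in IgG than in IgA cells by the same test (log2 2.60 ± 0.40 SE, edgeR adjusted p = 9.94e-05, higher in 5 of 5 libraries). The IgA over IgM difference was -0.63 ± 0.43 (log2 ± SE, edgeR adjusted p = 0.410, lower in 4 of 5 libraries), and -0.0088 without the B220+2NBDG- library (edgeR adjusted p = 0.998). Of the 4 members tested for isotype, Cxcr3 alone was called higher in IgG than in IgM, where 2.54% of 7948 genes tested were. Since the labels do not state whether different mice gave the 5 libraries, these p-values reflect only the spread among them, which may be technical.

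**Figure D3:**
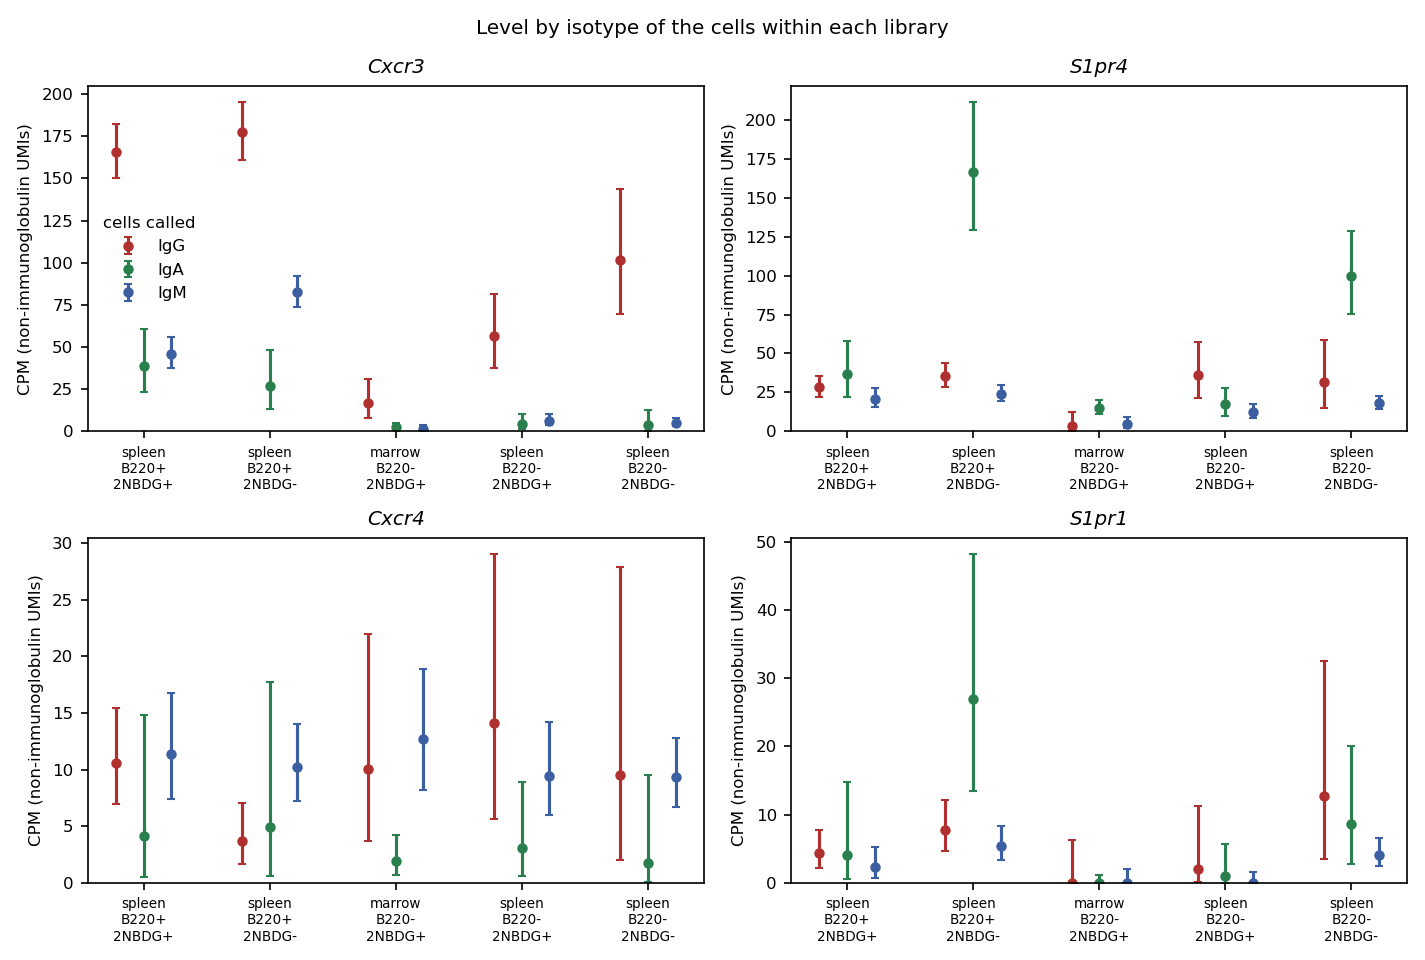
Level of Cxcr3, S1pr4, Cxcr4 and S1pr1 in CPM over non-immunoglobulin UMIs in cells called IgG, IgA or IgM within each library; bars are exact 95% Poisson intervals. Cxcr3 is highest in IgG cells in all 5 libraries, and S1pr4 reaches 167 and 99.5 CPM in IgA cells of the 2NBDG- libraries.

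The B220 ratio of Cxcr3 was higher in IgM than in IgG cells in both pairs. Within IgM cells the B220+ over B220- ratio was 7.43 (4.30 to 13.8) among 2NBDG+ cells and 16.3 (10.5 to 26.7) among 2NBDG- cells. Within IgG cells it was 2.93 (2.00 to 4.47) among 2NBDG+ and 1.75 (1.22 to 2.59) among 2NBDG- cells. The IgM and IgG intervals do not overlap in the 2NBDG- pair and overlap slightly in the 2NBDG+ pair; with 1 library per gate the difference between isotypes was not tested further. Under the call rule Cxcr3 was higher in IgM cells in both pairs, where 2.07% (2NBDG+) and 7.01% (2NBDG-) of genes were, and in IgG cells in the 2NBDG+ pair alone, where 5.56% were. In the 2NBDG- pair 11.8% of genes were called higher in IgG cells and Cxcr3 was not. IgG cells made up 552 of 1126 and 417 of 1215 cells of the B220+2NBDG+ and B220+2NBDG- libraries, against 117 of 894 and 74 of 1295 cells of the splenic B220-2NBDG+ and B220-2NBDG- libraries, a difference that the ratios within 1 isotype do not contain.

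Cxcr3 was not called between IgG2c cells and cells of the other IgG subclasses. In B220+2NBDG+ spleen it had 167 CPM in IgG2c cells (249 UMIs, 309 cells) against 163 CPM in other IgG cells (172 UMIs, 243 cells), and in B220+2NBDG- spleen 153 CPM (228 UMIs) against 217 CPM (205 UMIs). In bone marrow it had 12.3 CPM in IgG2c cells (2 UMIs) against 18.5 CPM in other IgG cells (8 UMIs), in B220-2NBDG+ spleen 73.9 CPM (17 UMIs) against 41.3 CPM (11 UMIs), and in B220-2NBDG- spleen 112 CPM (15 UMIs) against 93.8 CPM (17 UMIs). IgG2c was thus higher in 3 libraries and lower in 2. The log2 difference over 10 sums was -0.12 (edgeR adjusted p = 0.968) and turned to 0.15 without the B220+2NBDG- library. The difference for S1pr4 was 0.06 (edgeR adjusted p = 0.999), and 0.332% of 3310 genes tested were called between these subclasses.

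Cycling cells are given as values, because 1 library alone held at least 20 of them. In the B220+2NBDG- library 161 cycling cells had 117 CPM of Cxcr3 (101 to 133), against 114 CPM (104 to 123) in 1049 other cells. In the B220-2NBDG- library 18 cycling cells had 89.8 CPM (13 UMIs, 47.8 to 154), against 8.67 CPM (43 UMIs) in 1264 other cells. The intervals overlap in the B220+2NBDG- library, while the level in cycling B220-2NBDG- cells rests on 4 cells with a UMI, 1 of which held 7 of the 13 UMIs; thinned, 0 of the 18 had one, which allows a share of up to 16.7%. Of 19 tested genes of a cell cycle list, 18 were called higher in B220+2NBDG- than in B220-2NBDG- cells, where 5.91% of all genes tested were. Among B220+ cells, 19 of 19 tested were called lower in 2NBDG+ cells, where 184 of 3987 genes were. In the 2NBDG+ pair 1 of 2 tested was called higher in B220+ cells, where 2.45% of genes were. Without cycling cells Cxcr3 was still called in both B220 comparisons.

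S1pr4 was the second best counted receptor, and it was higher in IgA than in IgM cells of every library. Its level was 26.6 CPM (146 UMIs, 22.5 to 31.3) in B220+2NBDG+ and 36.8 CPM (245 UMIs, 32.3 to 41.7) in B220+2NBDG- spleen. It was 10.6 CPM (60 UMIs, 8.10 to 13.7) in bone marrow, 16.7 CPM (66 UMIs, 12.9 to 21.3) in B220-2NBDG+ spleen and 28.7 CPM (147 UMIs, 24.3 to 33.8) in B220-2NBDG- spleen. The order runs from B220+2NBDG- down to bone marrow, and the neighbours B220-2NBDG- and B220+2NBDG+ do not differ beyond counting error. The share of cells with a UMI was lowest in bone marrow (56 of 938 cells) and highest in B220+2NBDG- spleen (182 of 1215 cells); thinned, the B220+2NBDG- library had 49 of 1210 cells with a UMI and bone marrow 13 of 935.

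No ratio of S1pr4 between gates reached 2. It was 1.38-fold lower in 2NBDG+ than in 2NBDG- cells among B220+ cells (1.12 to 1.71) and 1.72-fold lower among B220- cells (1.28 to 2.34). It was 1.59-fold higher in B220+ than in B220- cells among 2NBDG+ cells (1.18 to 2.16) and 1.28-fold higher among 2NBDG- cells (1.04 to 1.58); with Jchain left out of the total, the ratio of 1.28 became 1.09 (0.888 to 1.35) and no longer differed from 1 beyond counting error. Bone marrow was 1.57-fold lower than spleen (1.09 to 2.27). Scaled to all UMIs, immunoglobulins included, the 2NBDG+ over 2NBDG- ratio in B220+ cells was 0.481 for S1pr4 and 0.596 for Cxcr3. Over all genes tested the median log2 ratio was -0.17 for 2NBDG in B220+ cells, 0.14 and 0.24 for B220 in 2NBDG+ and 2NBDG- cells and -0.16 for bone marrow, each in the direction of the S1pr4 ratio; scaled without Jchain these medians lay between -0.11 and 0.003.

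By isotype S1pr4 had 167 CPM in IgA (68 UMIs, 77 cells) against 24.2 CPM in IgM cells (90 UMIs) of B220+2NBDG- spleen, and 99.5 CPM (58 UMIs, 135 cells) against 18.0 CPM (75 UMIs) in B220-2NBDG- spleen. In the 2NBDG+ libraries the IgA and IgM values lay closer: 36.9 against 20.9 CPM in B220+2NBDG+ spleen, 15.2 against 4.77 CPM in bone marrow and 17.2 against 12.4 CPM in B220-2NBDG+ spleen. IgA was above IgM in every library, but not above IgG in B220-2NBDG+ spleen. There IgG2c cells had 26.1 CPM (6 UMIs) and other IgG cells 45.0 CPM (12 UMIs). The edgeR test gave 3.93-fold more S1pr4 in IgA than in IgM cells (log2 1.98 ± 0.26 SE, edgeR adjusted p = 9.15e-06, 5 of 5 libraries). IgG cells were 2.59-fold lower than IgA cells (log2 -1.37 ± 0.29 SE, edgeR adjusted p = 0.00256, lower in 4 of 5 libraries), a call lost without the B220+2NBDG- library (edgeR adjusted p = 0.124). The IgG over IgM difference was 0.60 ± 0.28 (log2 ± SE, edgeR adjusted p = 0.243).

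IgA cells were where S1pr4 differed most with 2NBDG. In IgA cells it was 4.52-fold lower in 2NBDG+ than in 2NBDG- cells among B220+ cells (2.66 to 8.08; 18 against 68 UMIs) and 5.78-fold lower among B220- cells (3.32 to 10.6; 17 against 58 UMIs). In IgM cells the same ratios were 0.863 (0.591 to 1.24) and 0.685 (0.433 to 1.06), and in IgG cells 0.803 (0.579 to 1.11) and 1.14 (0.500 to 2.77). S1pr4 was called lower in IgA cells in both pairs, where 19.7% (B220+) and 13.9% (B220-) of genes were, so many other genes were lower there too. Klf2 was among them, the transcription factor that drives S1pr1 in T cells. In IgA cells Klf2 had 215 CPM in B220+2NBDG+ against 1391 CPM in B220+2NBDG- spleen. It had 120 CPM in B220-2NBDG+ against 796 CPM in B220-2NBDG- spleen, while it lay between 19.6 and 76.3 CPM in IgM and IgG cells of all 5 libraries.

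**Figure D4:**
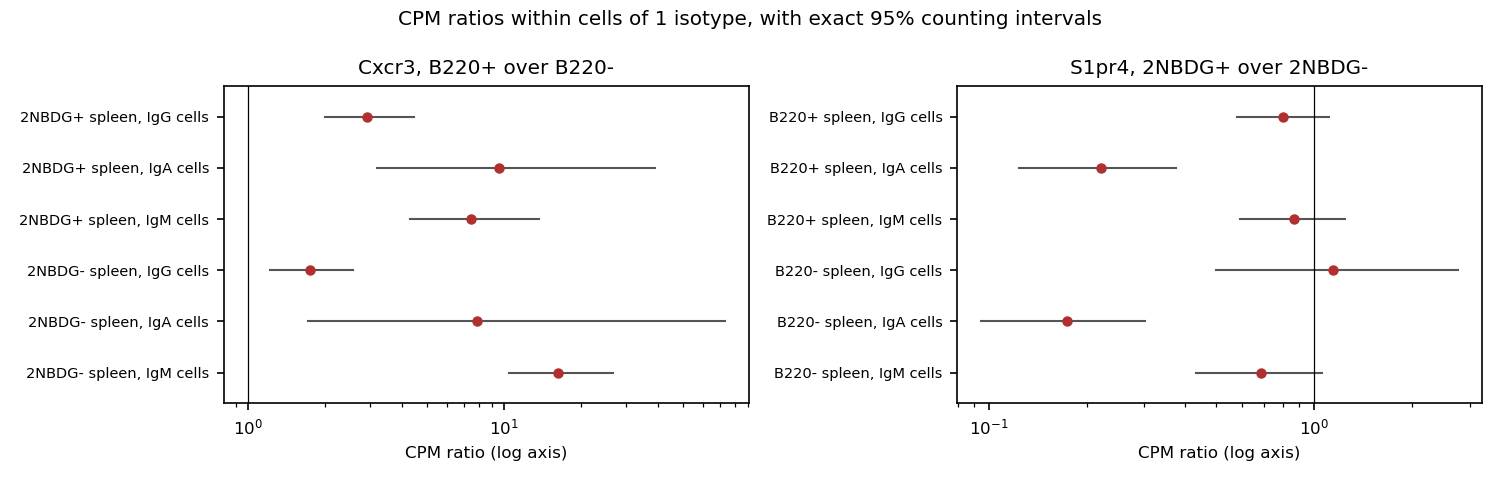
CPM ratios within cells of 1 isotype (horizontal log axes) with exact 95% counting intervals: B220+ over B220- for Cxcr3 on the left, 2NBDG+ over 2NBDG- for S1pr4 on the right. For Cxcr3 the IgM ratios of 7.43 and 16.3 lie above the IgG ratios of 2.93 and 1.75, and for S1pr4 the IgA ratios lie below those of IgM and IgG cells.

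S1pr1 had few UMIs, of which 2 of 99 came from splenic B220-2NBDG+ cells and none from bone marrow. It had 3.65 CPM (20 UMIs, 2.23 to 5.63) in B220+2NBDG+ and 7.50 CPM (50 UMIs, 5.57 to 9.89) in B220+2NBDG- spleen. It had no UMI in bone marrow, which allows up to 0.531 CPM, 0.506 CPM (2 UMIs) in B220-2NBDG+ spleen and 5.28 CPM (27 UMIs, 3.48 to 7.68) in B220-2NBDG- spleen. The 2NBDG+ cells were 2.06-fold lower among B220+ cells (1.20 to 3.65) and 10.4-fold lower among B220- cells (2.62 to 90.5). B220+ cells were 7.20-fold higher among 2NBDG+ cells (1.75 to 63.5) and 1.42-fold higher among 2NBDG- cells (0.873 to 2.36). All of these levels lie below 25 CPM, so none counts as a call.

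In IgA cells S1pr1 reached 27.0 CPM (11 UMIs) in B220+2NBDG- spleen, against 5.38 CPM (20 UMIs) in IgM cells. The IgA over IgM difference was 3.15-fold (log2 1.65 ± 0.49 SE, edgeR adjusted p = 0.0265, higher in 4 of 5 libraries and 0 in both classes in the fifth). With DESeq2 its adjusted p was 0.0534, and without the B220+2NBDG+ library the edgeR adjusted p was 0.0568. With no library block the difference was 1.97-fold (edgeR adjusted p = 0.784). Without the B220+2NBDG- library, which gave 11 of the IgA UMIs, or without the B220-2NBDG- library, S1pr1 did not pass the filter on low counts. S1pr1 and S1pr4 were the 2 members called higher in IgA than in IgM cells, where 6.29% of genes were. Ccr10 and Ccr9, receptors for the mucosal chemokines CCL28 and CCL25, were higher in IgA cells too, 19.2-fold (log2 4.26 ± 0.25 SE, edgeR adjusted p = 6.47e-11) and 11.2-fold (log2 3.48 ± 0.31 SE, edgeR adjusted p = 4.70e-08).

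Cxcr4 lay under the minimum of 25 CPM in every library, so no call between gates was possible. It had 10.0 CPM (55 UMIs, 7.55 to 13.0) in B220+2NBDG+ and 7.80 CPM (52 UMIs, 5.83 to 10.2) in B220+2NBDG- spleen. It had 6.73 CPM (38 UMIs, 4.76 to 9.23) in bone marrow, 8.61 CPM (34 UMIs, 5.96 to 12.0) in B220-2NBDG+ spleen and 8.41 CPM (43 UMIs, 6.08 to 11.3) in B220-2NBDG- spleen. All 5 intervals overlap. The bone marrow over spleen ratio was 0.782 (0.479 to 1.28). Between 3.09% and 4.53% of cells had a Cxcr4 UMI, and no cell had more than 3.

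Isotype did separate Cxcr4. In bone marrow it had 10.1 CPM in IgG (6 UMIs), 1.94 CPM in IgA (6 UMIs in 553 cells) and 12.7 CPM in IgM cells (24 UMIs in 294 cells). In the 4 splenic libraries IgA cells had between 1.72 and 4.91 CPM and IgM cells between 9.38 and 11.4 CPM. IgA cells of all 5 libraries together held 14 Cxcr4 UMIs, 6 of them in bone marrow, so each splenic IgA value rests on very few UMIs. Cxcr4 was 3.84-fold lower in IgA than in IgM cells (log2 -1.94 ± 0.39 SE, edgeR adjusted p = 0.00112, lower in 5 of 5 libraries), and it was the 1 member called lower there, as 6.86% of genes were. It was 2.87-fold higher in IgG than in IgA cells (log2 1.52 ± 0.46 SE, edgeR adjusted p = 0.0373, higher in 4 of 5 libraries), but that call was lost when any 1 library other than B220+2NBDG- was left out (edgeR adjusted p between 0.0860 and 0.273). Cxcr3 and Cxcr4 were the 2 members called higher in IgG than in IgA cells, where 4.94% of genes were, and S1pr4 the 1 called lower, where 4.63% were.

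Cxcr5, Ccr2 and Ccr7 were close to the limit of detection. Cxcr5 had 2 UMIs in B220+2NBDG+, 12 in B220+2NBDG-, 0 in bone marrow and 1 each in splenic B220-2NBDG+ and B220-2NBDG- cells, so the B220+2NBDG- library stood highest at 1.80 CPM (0.930 to 3.14). Ccr2 had 3 UMIs in B220+2NBDG+, 1 in B220+2NBDG-, none in bone marrow and splenic B220-2NBDG+, and 3 in B220-2NBDG- cells. Ccr7 had 1 UMI in each of B220+2NBDG+, B220+2NBDG- and B220-2NBDG- spleen and none in the other libraries. A count of 0 allows up to 0.531 CPM in bone marrow and 0.759 CPM in B220-2NBDG+ spleen, so lower levels would not have been detected.

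Few other receptors reached the minimums for a call. Of 18 other chemokine receptors, 1 or 2 did in each comparison; in bone marrow against spleen these were Ccr9 and Ccr10, both called higher, where 2.58% of all genes tested were called in either direction. Ccr9 had 37.9 CPM in bone marrow (214 UMIs) against 14.9 CPM in splenic B220-2NBDG+ cells (59 UMIs), 2.54-fold higher (1.89 to 3.44). Ccr10 had 219.5 CPM in bone marrow (1240 UMIs) against 94.4 CPM in spleen (373 UMIs), 2.32-fold higher (2.07 to 2.62). IgA cells made up 553 of 938 bone marrow cells against 214 of 894 splenic B220-2NBDG+ cells; the part of this in both ratios was not tested. Of the 10 ligand genes of the 7 receptors, 9 were in the tables and none reached the minimums in any library pair. Of 19 genes for G protein subunits, arrestins and regulators of G protein signalling, between 8 and 10 reached the minimums in each comparison and none was called. Of all genes tested, 2.58% to 5.77% were called in either direction for 2NBDG and bone marrow. For B220, 91 of 3715 were called higher and 55 lower among 2NBDG+ cells, and 238 of 4026 higher and 128 lower among 2NBDG- cells. With so few of the 19 tested, the lack of a call does not set them apart from other genes.

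Among 15 genes of the migration machinery, between 9 and 10 reached the minimums. Coro1a, an actin regulator of leukocytes, had 187 CPM in B220+2NBDG+ against 85.1 CPM in splenic B220-2NBDG+ cells, 2.20-fold higher (1.94 to 2.49), and 298 CPM in B220+2NBDG- against 130 CPM in B220-2NBDG- cells, 2.30-fold higher (2.11 to 2.52). Rapgef1, an exchange factor for the small G protein Rap1, had 14.0 CPM in B220+2NBDG+ against 28.6 CPM in splenic B220-2NBDG+ cells, 2.04-fold lower (1.51 to 2.76), and 15.3 CPM in B220+2NBDG- against 42.4 CPM in B220-2NBDG- cells, 2.77-fold lower (2.18 to 3.54). Both genes passed the rule in each B220 comparison. Of all genes tested, 2.45% (2NBDG+) and 5.91% (2NBDG-) were called higher there, and 55 of 3715 and 128 of 4026 lower. Among 13 receptor regulators, Klf2 was 2.30-fold lower (1.99 to 2.67) in 2NBDG+ than in 2NBDG- B220- spleen, at 62.8 against 145 CPM. In the same comparison S1pr1 was 10.4-fold lower, on 2 against 27 UMIs and below the minimum for a call. A link between Klf2 and S1pr1 was not tested. Cd69, whose product binds S1PR1 and keeps it off the surface, was 2.17-fold lower in B220+2NBDG- than in B220-2NBDG- cells (1.75 to 2.70; 20.6 against 44.6 CPM).

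By isotype, Klf2 was 8.68-fold higher in IgA than in IgM cells (log2 3.12 ± 0.33 SE, edgeR adjusted p = 4.35e-07) and Cd69 2.07-fold higher (log2 1.05 ± 0.23 SE, edgeR adjusted p = 0.00280). Coro1a was 1.89-fold higher in IgG than in IgM cells (log2 0.92 ± 0.14 SE, edgeR adjusted p = 0.000212). Coro1a was 2.40-fold higher in IgA than in IgM cells (log2 1.26 ± 0.14 SE, edgeR adjusted p = 7.15e-07), and its IgG over IgA difference was -0.34 ± 0.14 (log2 ± SE, edgeR adjusted p = 0.166), whereas Cxcr3 was higher in IgG than in IgA cells. Of the 6 receptor regulators tested, 4 were called higher and 1 lower in IgA than in IgM cells, where 6.29% of all genes tested were called higher and 6.86% lower. The lower 1 was Foxp1 (log2 -1.03 ± 0.13 SE, edgeR adjusted p = 8.66e-06). The median log2 difference of the 6 was 0.83, against -0.0019 over all genes tested.

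The genes whose levels ran most like each receptor were read from log2(CPM + 1) over the 15 sums, among 4175 genes. For Cxcr3 they were Pdhb (Pearson r = 0.939), Gusb (0.930), Eif4a3 (0.919), Cope (0.916) and Slc31a1 (0.911). For S1pr4 they were S100a10 (0.942), Clint1 (0.938), Lsp1 (0.931), Tmsb4x (0.930) and Vbp1 (0.929), and for S1pr1 Carhsp1 (0.939), Arhgap45 (0.935), Tmsb4x (0.923), Mrpl50 (0.918) and Lims1 (0.915), with Tmsb4x on both lists. For Cxcr4 they were Srp14 (0.915), Chst1 (0.898), Unc93b1 (0.891), Rer1 (0.881) and Arid5a (0.880). These are descriptions over sums that share libraries, depth and, for each sum, its cells, and they are the highest of many values.

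Within single libraries, Cxcr3 and S1pr4 were not seen to go together in cells thinned to 1000 UMIs. In B220+2NBDG+ spleen 3 of 109 cells with a Cxcr3 UMI also had an S1pr4 UMI (2.75%, 0.571 to 7.83), against 31 of 1007 cells without (3.08%, 2.101 to 4.34). In B220+2NBDG- spleen it was 2 of 109 (1.83%, 0.223 to 6.47) against 47 of 1101 (4.27%, 3.15 to 5.64). Both pairs of intervals overlap, and with so few joint cells a difference would be hard to detect.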

How the data were processed

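Per the labels' protocols, single cells were prepared with version 2 of the 3′ kit of 10x Genomics. The deposited tables hold raw UMI counts per gene and barcode; Cell Ranger 2.1 and the build GRCm38 are named in the submitters' processing notes. Which annotation and barcode filter were applied is not given in the sources used here. Reads of 3′ ends shared by near-identical genes can be lost or assigned to either copy.

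Of 33456 genes, 32739 were found in GENCODE M21, and 266 immunoglobulin genes were left out of all totals. All 5476 barcodes had at least 1945 UMIs, at least 250 genes and at most 8.67% mitochondrial UMIs. Clustering in scanpy 1.11.5 (2000 variable genes, 30 principal components, 15 neighbours, Leiden resolution 1) gave a cluster of 8 cells led by Trbc2, Ms4a4b and Nkg7 with Cd3e and Thy1, named T cell-like and left out. Outside it no cell had 3 or more UMIs of 7 T cell genes, which did not include Cd3g and Lat. Scrublet marked 82 doublets (1.50%), which were kept.

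Ratios between libraries had no test. Their intervals are conditional binomial, those of CPM Poisson and those of shares Clopper-Pearson, all exact at 95%; counts below 3 were raised to 3 for a call, and the limit for a count of 0 is 3 counts per library. Sums per library and isotype of at least 20 cells were tested across all genes with edgeR 4.0.16 (R 4.3.3; quasi-likelihood, TMM, filterByExpr, library as a block) with Benjamini-Hochberg adjustment at 0.05. DESeq2 1.42.0 was an alternative. The edgeR test and the call rule were tested on simulated data, and the outcome is not given here. The simulation for edgeR used a common dispersion for all genes and no library effect, unlike the real sums. A cycling cell had at least 3 UMIs of 20 cell cycle genes after thinning.

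The 7 genes, the other lists and the thresholds were chosen with earlier results of these data known. The text names the 7 genes throughout, of each other list up to 4 genes with the largest absolute log2 ratio past the call rule, Ccr9 and Ccr10, defining markers, and the 5 genes with the highest correlation to each receptor of at least 50 UMIs. Klf2, Cd69 and Foxp1 by isotype, Ptprc, Rps18-ps3 and Tbx21 were named after their values were seen.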

Additional observations from a re-analysis of the deposited data

Results flagged for a closer look

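The 8 T cell-like cells that were left out of all comparisons carried UMIs of Cxcr3, S1pr4, Ccr2, Cxcr5 and Ccr7. They held 8 UMIs of Cxcr3, in 3 cells (147 CPM, exact 95% Poisson interval 63.5 to 290), and 8 UMIs of S1pr4, in 4 cells (the same 147 CPM). Cxcr3 and S1pr4 are both known in T cells. The 8 cells also held 3 UMIs of Ccr2, in 1 cell, 2 of Cxcr5, in 2 cells, and 1 of Ccr7. The cells kept held 7 UMIs of Ccr2, 16 of Cxcr5 and 3 of Ccr7 in all. With all deposited barcodes kept, the B220+ over B220- ratio of Cxcr3 was 8.45 among 2NBDG+ and 10.5 among 2NBDG- cells, and S1pr4 was called in no comparison.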

How the results depend on the processing

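Under other scalings and cell sets, 30 log2 CPM ratios of the members moved outside their counting interval and 177 did not; the called ratios of Cxcr3 kept their sign in all of them. With no minimum of CPM or UMIs, 2 members were called lower with 2NBDG in B220+ cells, as 794 of 14279 genes were. They were S1pr1 and Cxcr5, the latter on 2 against 12 UMIs. In B220- cells 1 member was called lower (S1pr1), as 721 of 13992 genes were. With B220, 2 members were called higher in each comparison, as 689 of 14005 genes were among 2NBDG+ and 956 of 14305 among 2NBDG- cells. In bone marrow 1 member was called lower (Cxcr3), as 626 of 13899 genes were. Within IgA cells 1 member was called lower in each 2NBDG comparison (S1pr4), and 0 were called higher with B220, where Cxcr3 was under the minimum of 50 UMIs and its ratios were 9.61 and 7.86. Within IgG cells 0 were called higher with B220 among 2NBDG- cells (Cxcr3 ratio 1.75); the cause was not tested. Scaling to all UMIs moved the median log2 ratio of all genes tested to -0.79 for 2NBDG in B220+ cells and 0.81 for B220 in 2NBDG- cells, and Cxcr3 was called in both B220 comparisons under every scaling.

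The isotype fit with no replicate block (no library term) called 0 members for IgG over IgM, against 1, and 0 for IgG over IgA, against 3, and S1pr1 lost its IgA over IgM call; the cause was not tested. The folds without the block were 3.72 for Cxcr3 in IgG over IgM, and in IgG over IgA 8.75 higher for Cxcr3, 2.73 higher for Cxcr4 and 2.32 lower for S1pr4. Leaving out 1 library, Cxcr3 in IgG over IgM lay between 1.63 and 2.64 (log2). Cxcr4 in IgG over IgA lost its call with DESeq2 (adjusted p = 0.0640) and with isotypes at 90% (edgeR adjusted p = 0.176). For IgG2c over other IgG, Cxcr3 turned to 0.022 with DESeq2 and 0.087 with no replicate block, and leaving out 1 library gave between -0.25 and 0.15. S1pr4 there turned to -0.0079 without TMM factors, -0.024 with DESeq2 and -0.022 without cycling cells, an alternative chosen after seeing the data. The lowest adjusted p of Cxcr3 for IgG2c was 0.744 (edgeR, no TMM factors). With no filter on low counts Cxcr3 was called lower in IgA than in IgM cells (log2 -0.71, edgeR adjusted p = 0.0415); leaving out 1 library gave between -0.92 and -0.0088 there, with no call. The alternatives for cycling cells were not run, since 1 library alone had at least 20. Depth limits Cxcr5, Ccr2 and Ccr7 in all libraries and S1pr1 by isotype.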
